A study of Mus musculus with 6 samples.

Results

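Genes of DNA replication and S phase were followed across 6 neurosphere cultures from adult mice. The set was a fixed list of 36 symbols, matched to the array by current or older symbol, with 1 probe set per gene that named that gene alone and, where there were several, had the highest mean over the 6 arrays. It gave 35 genes of the 22180 measured. Ccne2 had no probe set of its own and was not analysed here. Neurospheres are balls of neural stem cells and their progeny that grow in suspension. These came from the subventricular zone of CD1 mice, an outbred stock, aged 2 months, and were grown for 7 days in EGF and FGF2. The mothers had been injected intraperitoneally, from gestational day 12 until birth, with PBS (3 cultures, the controls) or with MG at 0.5 mg/kg (3 cultures), where MG is taken to be methylglyoxal, which the series title names. Whether they were primary (as in titles and tissue labels) or secondary (as in sample descriptions) is not settled by the labels. The labels give no sex, no mother and no batch for any animal, and they do not say whether animals of a group were littermates. P-values therefore measure the spread between these samples only.

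DNA replication begins with a helicase made of Mcm2 to Mcm7, which is loaded onto DNA before S phase by Cdc6 and Cdt1 and switched on when Cdc45 and the GINS complex join it. Polymerases then copy both strands, held to DNA by the sliding clamp Pcna, while ribonucleotide reductase and thymidylate synthase supply nucleotides and chromatin factors rebuild nucleosomes behind the fork. E2F transcription factors, released as cyclin-dependent kinases inactivate the retinoblastoma proteins, drive many of these genes together as cells leave G1. In neurosphere cultures the genes mark cycling progenitors, as against quiescent stem cells and differentiated cells.

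The promoters are shown first because the genes varied together across the cultures. RefSeq promoters of GRCm38.p6 (250 bases before to 50 after the start of the gene) were matched for 28 of the 35 genes. Gins1, Gins2, Mcm4, Dscc1, Exo1, Tipin and Usp1 were not among them. An E2F word, meaning any of the words TTTCCCGC, TTTGGCGC, TTTCGCGC or TTTGCCGC on either strand, stood in the promoters of 10 of the 28 genes, or 35.7%. The share was 3.26% of the 16990 measured genes with a promoter in the table. It was 34.2% of 38 other replication genes, so it is not particular to this set. The 10 genes were Mcm3, Mcm5, Mcm6, Mcm7, Cdc6, Cdt1, Hells, Uhrf1, Clspn and Pold3. In 6 of them, Mcm5, Mcm6, Mcm7, Cdc6, Hells and Uhrf1, a match lay before the start site. The NF-Y word CCAAT was in 60.7% of the 28 genes and in 41.6% of all genes measured, and the CHR word TTTGAA in 14.3% and 17.8%. CHR is an element known from genes of late cell cycle stages, and 75.0% of 32 mitosis genes held the word, while 3.12% of them held an E2F word. The words are short and were matched exactly on both strands, so a match describes the letters only.

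The 200 bases directly before the start site are given for 5 genes with a match there and for E2f8 and Tyms, which had the widest differences between arrays described below and no match. Capitals mark E2F words, which overlap each other in Mcm5 and in the first match of Mcm6.
Mcm5 (chr8:75109309-75109508, + strand): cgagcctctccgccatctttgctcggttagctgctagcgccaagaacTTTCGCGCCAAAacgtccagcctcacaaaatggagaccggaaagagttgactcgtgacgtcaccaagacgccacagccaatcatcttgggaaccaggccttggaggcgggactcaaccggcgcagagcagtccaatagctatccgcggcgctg
Mcm6 (chr1:128359706-128359905, - strand): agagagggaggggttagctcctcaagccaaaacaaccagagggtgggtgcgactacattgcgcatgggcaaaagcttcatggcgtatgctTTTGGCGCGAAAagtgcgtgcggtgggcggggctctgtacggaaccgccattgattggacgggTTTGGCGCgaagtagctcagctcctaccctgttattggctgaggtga
Mcm7 (chr5:138171884-138172083, - strand): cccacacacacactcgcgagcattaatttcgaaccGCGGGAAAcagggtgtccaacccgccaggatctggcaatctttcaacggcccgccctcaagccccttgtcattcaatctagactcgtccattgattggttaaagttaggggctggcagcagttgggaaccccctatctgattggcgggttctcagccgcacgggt
Cdc6 (chr11:98907951-98908150, + strand): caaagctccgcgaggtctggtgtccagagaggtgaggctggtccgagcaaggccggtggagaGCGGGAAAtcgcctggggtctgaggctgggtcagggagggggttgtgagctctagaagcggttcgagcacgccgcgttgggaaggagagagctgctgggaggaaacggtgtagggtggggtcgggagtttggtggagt
Hells (chr19:38930790-38930989, + strand): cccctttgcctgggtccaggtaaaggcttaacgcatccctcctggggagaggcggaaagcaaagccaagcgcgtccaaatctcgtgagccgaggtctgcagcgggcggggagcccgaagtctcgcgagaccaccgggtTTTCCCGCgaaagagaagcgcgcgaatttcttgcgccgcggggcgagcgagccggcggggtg
E2f8 (chr7:48881597-48881796, - strand): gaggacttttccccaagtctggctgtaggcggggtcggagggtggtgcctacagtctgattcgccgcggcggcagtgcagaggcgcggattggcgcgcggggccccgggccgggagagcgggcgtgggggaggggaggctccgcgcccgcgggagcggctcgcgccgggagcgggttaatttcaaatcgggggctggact
Tyms (chr5:30073626-30073825, - strand): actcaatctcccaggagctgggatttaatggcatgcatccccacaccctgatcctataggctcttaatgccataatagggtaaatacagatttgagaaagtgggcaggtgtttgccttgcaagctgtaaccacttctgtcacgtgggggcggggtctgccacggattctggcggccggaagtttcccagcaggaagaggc
Counted from the start site, matches began at base -153 in Mcm5, -110 and -47 in Mcm6, -165 in Mcm7, -138 in Cdc6 and -62 in Hells.

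**Figure D1:**
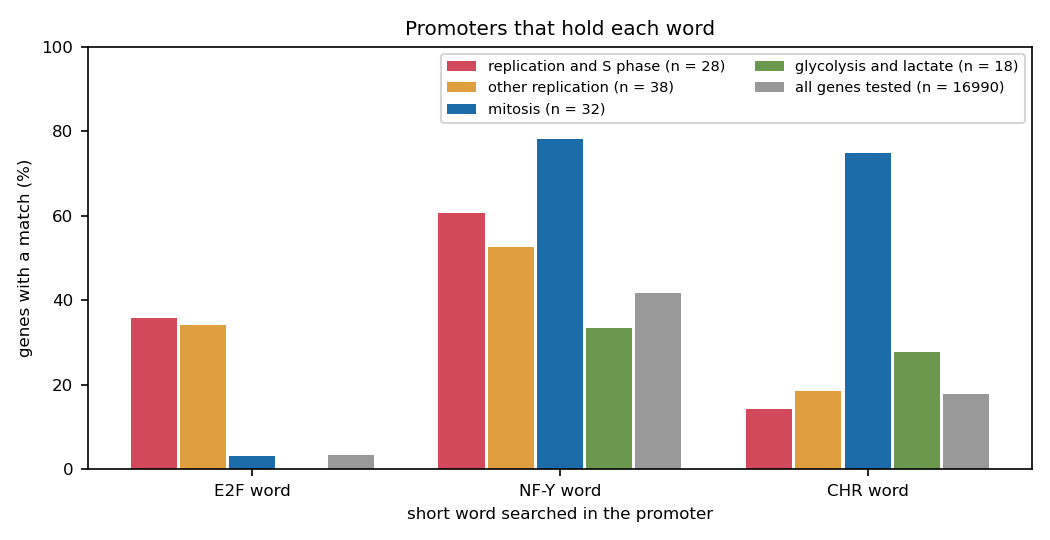
Share of genes (%, vertical axis) whose promoter holds an E2F, NF-Y or CHR word, for the replication and S phase genes, 3 other lists and all genes measured. For the E2F words the replication and S phase genes stand at 35.7%, other replication genes at 34.2% and all genes at 3.26%. The mitosis genes stand at 75.0% for CHR.

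The values are the authors' log2 values, and a difference of 1 is a doubling. The arrays had median values from 5.25 to 5.42 over all probe sets. As a level for dim probe sets, the 95th percentile of the means of 1390 olfactory and vomeronasal receptor genes was taken, 5.02 on the log2 scale. All 35 genes were above it on all 6 arrays, with means from 6.19 (Dscc1) to 10.84 (Rrm1). In both groups, 13704 of the 22180 genes had a mean above it. Markers of neural stem cells and radial glia, among them Nes, Sox2 and Fabp7, did so in 14 of 14 genes. Astrocyte markers did in 11 of 12, neuroblast and neuron markers in 9 of 10 and oligodendrocyte markers in 8 of 9. The counts were 6 of 10 for pericytes and fibroblasts, 5 of 8 for ependyma, 4 of 10 for microglia and 4 of 10 for endothelium.

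In each of the 35 genes both arrays numbered 3, PBS replicate 3 and MG replicate 3, lay above the other 4 arrays. Over all genes the same was true of 15.7%, and of 22.5% of the 13704 genes above the dim level in both groups. The median gap, the mean of the arrays numbered 3 minus the mean of the other 4, was 0.69 on the log2 scale, or 1.61-fold, while the median over all genes was -0.03. The gaps ran from 0.22 in Ccne1 to 1.18 in E2f8, and 25 of the 35 were above the 95th percentile of all genes. That these arrays stand apart was known from earlier results of these data, and the labels give no reason for it, so the gap is described here without a test. The 35 genes share the same 6 cultures, and their number is not a number of independent observations. The measurement is of bulk RNA, in which fewer cells in S phase and less of each RNA per cell cannot be told apart.

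**Figure D2:**
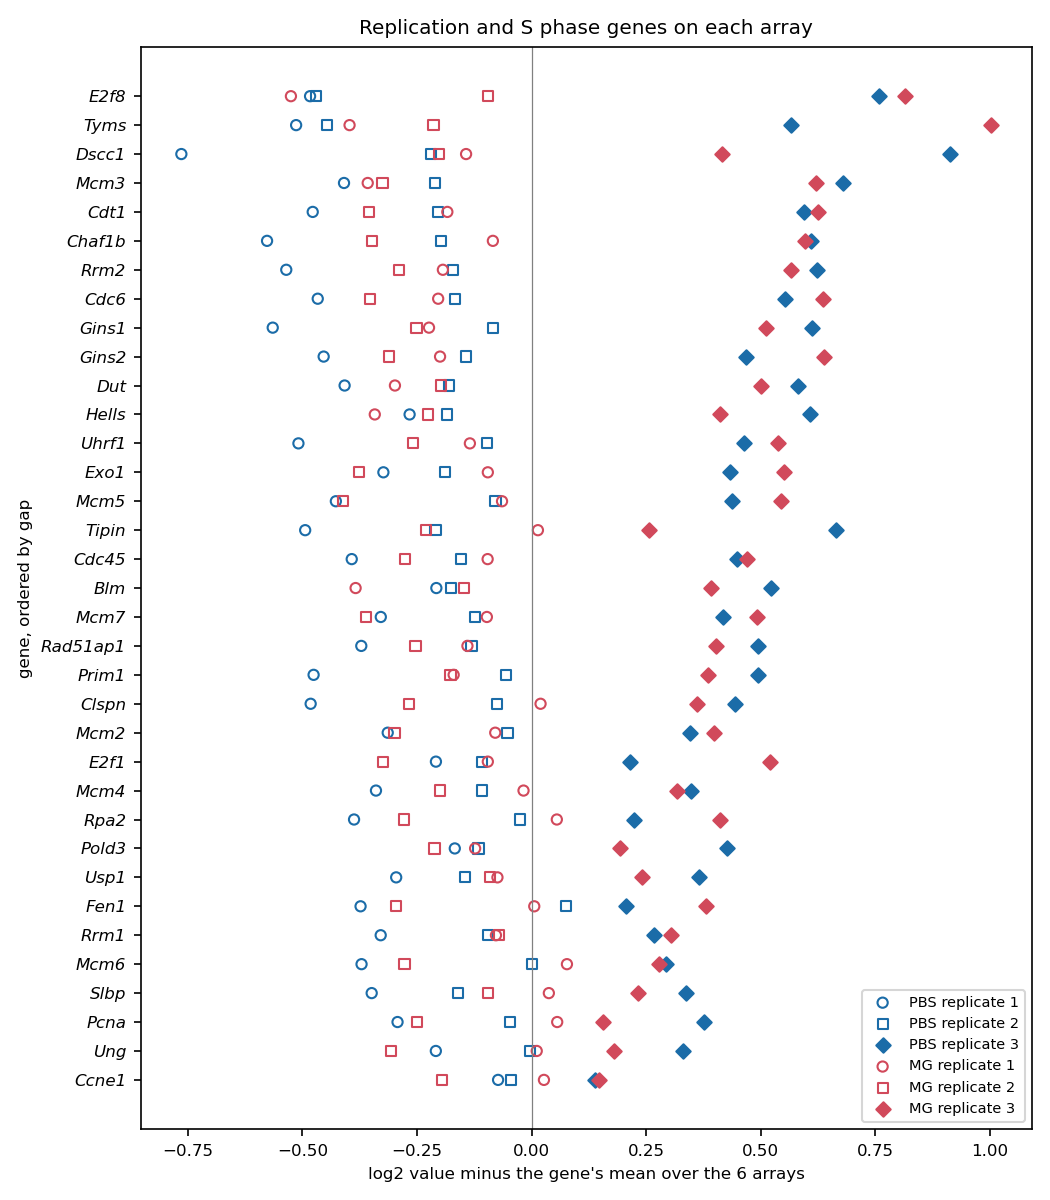
Log2 value of each of the 35 genes on each array, minus the mean of the gene over the 6 arrays (horizontal axis), with genes ordered by the gap (vertical axis); blue is PBS, red is MG, and filled diamonds are the arrays numbered 3. Both diamonds lie to the right of all open symbols in each gene, by a margin of 0.10 at least, and PBS replicate 1 is the lowest in 26 genes.

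The other 4 arrays were not alike either. PBS replicate 1 was the lowest of the 6 arrays in 26 of the 35 genes, MG replicate 2 in 6 and MG replicate 1 in 3. Over all 22180 genes PBS replicate 1 was lowest in 13.8%, PBS replicate 3 in 4722 genes and MG replicate 3 in 5134 genes. In the 35 genes neither array numbered 3 could be lowest, so these counts are not comparable. Relative to the mean of each gene, the median of the 35 genes was -0.39, -0.13 and 0.45 in PBS replicates 1, 2 and 3. In MG replicates 1, 2 and 3 it was -0.10, -0.26 and 0.41. The range over those 4 arrays had a median of 0.31 in the 35 genes and also 0.31 in all genes. In 32 of the 35 genes the gap was wider than that range, a count that was not made over all genes. PBS replicate 3 was the highest array in 19 genes and MG replicate 3 in the other 16. Over all 22180 genes they were highest in 3067 and 5568. In the 35 genes the highest array had to be one of these, as described above. The size of the difference between them had a median of 0.10.

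Among the 11 genes of the helicase and its loading, the median gap was 0.74 and Mcm3 had the widest, 0.98. Mcm3, a helicase subunit, had log2 values of 9.60, 9.80 and 10.69 in PBS replicates 1, 2 and 3, and of 9.65, 9.68 and 10.63 in MG. Its 4 lower values lay within 0.20 of each other, and 98.2% of its sum of squares over the 6 arrays lay between the arrays numbered 3 and the rest. Mcm6, of the same ring, had the narrowest gap of these genes, 0.43. It had 9.32, 9.70 and 9.99 in PBS, and 9.77, 9.42 and 9.97 in MG. In Mcm6 MG replicate 1 lay only 0.20 below the lower of the arrays numbered 3, and the share of the sum of squares was 63.5%. The measured gaps thus differed between subunits of the same complex. Each rests on 1 probe set, and the difference between subunits was not tested.

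The remaining subunits lay in between. Mcm2 had values of 9.47, 9.73 and 10.13 in PBS, and 9.70, 9.48 and 10.18 in MG. Mcm4 had 9.99, 10.22 and 10.68 in PBS, and 10.31, 10.13 and 10.65 in MG. In both genes PBS replicate 1 was lowest and MG replicate 1 lay close to PBS replicate 2. Mcm5 had 9.50, 9.85 and 10.36 in PBS, and 9.86, 9.51 and 10.47 in MG. Mcm7 had 9.94, 10.14 and 10.68 in PBS, and 10.17, 9.91 and 10.76 in MG. In these subunits PBS replicate 1 and MG replicate 2 formed the lower pair. The loading factors Cdt1 and Cdc6 had gaps of 0.92 and 0.89, the GINS subunits Gins1 and Gins2 0.84 and 0.83, and Cdc45, which completes the active helicase, 0.69.

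The 7 genes of polymerases, the clamp and strand processing had a median gap of 0.48. Dscc1, a subunit of an alternative clamp loader, was the dimmest of the 35 and had values of 5.43, 5.97 and 7.10 in PBS, and 6.05, 5.99 and 6.61 in MG. Its gap was 0.996, and PBS replicate 3 lay 0.50 above MG replicate 3, the widest such difference among the 35 genes. The clamp gene Pcna, bright on all arrays, had 10.36, 10.60 and 11.02 in PBS, and 10.70, 10.40 and 10.80 in MG. Its gap was 0.40, and MG replicate 3 exceeded MG replicate 1 by only 0.10, the smallest margin in the set. Rpa2, which encodes a subunit of the single-strand binding protein, had 8.20, 8.56 and 8.81 in PBS, and 8.64, 8.31 and 8.996 in MG. Gaps were 0.74 for the exonuclease gene Exo1, 0.66 for the primase gene Prim1, 0.46 for the polymerase delta subunit gene Pold3 and 0.44 for the flap endonuclease gene Fen1.

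Genes of nucleotide supply held both wide and narrow gaps. Tyms, thymidylate synthase, had values of 7.57, 7.64 and 8.65 in PBS, and 7.69, 7.87 and 9.09 in MG, a gap of 1.18 or 2.26-fold. MG replicate 3 was its highest array, 0.44 above PBS replicate 3. Ung, which removes uracil from DNA, had 6.54, 6.74 and 7.08 in PBS, and 6.76, 6.44 and 6.93 in MG, a gap of 0.38. The large subunit of ribonucleotide reductase, Rrm1, had a gap of 0.43 and the small subunit Rrm2 one of 0.89. Dut, which breaks down dUTP, had a gap of 0.81. Rrm2, Dut and Fen1 each had a dimmer probe set as well. That of Fen1 also had both arrays numbered 3 above the rest, with a gap of 0.53. That of Dut had them above as well, but the other 4 arrays were under the dim level, so no gap is given. The dimmer probe set of Rrm2 was under the dim level on all 6 arrays, and its arrays numbered 3 did not lie above the rest.

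Chromatin genes were led by Chaf1b, a subunit of the histone chaperone that works at the fork. It had values of 8.41, 8.79 and 9.60 in PBS, and 8.90, 8.64 and 9.59 in MG. The arrays numbered 3 were nearly equal and the gap was 0.91. Slbp, whose protein binds histone mRNA, had 8.39, 8.58 and 9.07 in PBS, and 8.78, 8.64 and 8.97 in MG, a gap of 0.43. The remodelling ATPase gene Hells and Uhrf1, which recruits maintenance DNA methylation, had gaps of 0.76 and 0.75.

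Among the checkpoint and repair genes the median gap was 0.67. Tipin, which stabilises stalled forks with Timeless, had values of 8.60, 8.89 and 9.76 in PBS, and 9.11, 8.87 and 9.35 in MG. Its PBS replicate 3 lay 0.41 above MG replicate 3. Usp1, a deubiquitinase that acts on Pcna, had 9.87, 10.02 and 10.53 in PBS, and 10.09, 10.07 and 10.41 in MG, a gap of 0.45. PBS replicate 3 was the highest array in all 5 of these genes, and Blm, Rad51ap1 and Clspn had gaps of 0.69, 0.67 and 0.60.

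Cyclin E and E2F genes held both ends of the set. E2f8, a repressor that is itself made in S phase, had values of 8.46, 8.47 and 9.70 in PBS, and 8.41, 8.84 and 9.75 in MG. It had the widest gap, 1.18 or 2.26-fold, and MG replicate 2, low in many of the other genes, was here the highest of the 4 lower arrays. Ccne1, the cyclin that brings cells into S phase, had 7.71, 7.74 and 7.92 in PBS, and 7.81, 7.59 and 7.93 in MG. Its gap of 0.22 was the narrowest, though both arrays numbered 3 still lay above the other 4. E2f1, an activator, had a gap of 0.55, with MG replicate 3 at 7.52 and PBS replicate 3 at 7.21. Across the 35 genes the gap had little relation to the mean level (Pearson r = -0.10, Spearman rho = -0.12, across genes on the same arrays). The 10 genes with an E2F word in the promoter had a median gap of 0.74 (range 0.43 to 0.98). The 18 genes with a promoter and no such word had 0.61 (range 0.22 to 1.18). A link between the words and the gap was not tested.

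Most genes of the same pathway outside the list had the gap as well. Both arrays numbered 3 lay above the rest in 15.7% of all genes and in 22.5% of genes above the dim level. Of 45 other replication genes, 39 (86.7%) had them above. In 1 both lay below, and the median gap was 0.44. The widest were the polymerase epsilon subunit genes Pole (1.18) and Pole2 (1.01), the origin firing factor gene Ticrr (1.15) and the thymidine kinase gene Tk1 (1.14). The narrowest were Pole4 (0.18), another epsilon subunit, the origin recognition genes Orc5 (0.06) and Orc4 (-0.03), and the clamp loader gene Chtf8 (-0.17). A further list held genes of E2F and pocket proteins, cyclin-dependent kinases and their regulators. Both arrays numbered 3 lay above in 14 of 22 (63.6%), against 15.7% of all genes and 22.5% of those above the dim level. In 4 of 22 (18.2%) both lay below, a share near the 15.7% of all genes and the 18.8% of genes above the dim level. These 4 were Rbl2, a pocket protein, at -0.23, and the kinase inhibitors Cdkn2a (-0.72), Cdkn1c (-0.79) and Cdkn2b (-0.999). E2f7, the close relative of E2f8, had a gap of 1.10 and E2f4 one of 0.97, while E2f5 and E2f6 had 0.09 and -0.04. The genes of this paragraph beyond the replication list were chosen for naming after their values were seen.

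Mitosis, glycolysis and astrocyte genes also set the arrays numbered 3 apart. Of 37 mitosis genes, 36 (97.3%) had both above, with a median gap of 0.48. The share was 15.7% of all genes and 22.5% of genes above the dim level. Both lay below in 15.7% of all genes and in 18.8% of those above the dim level. Genes of glycolysis and lactate had both arrays below in 16 of 19 (84.2%), with a median gap of -0.50. Their summed log2 level ran from 177 to 192 in PBS and from 177 to 190 in MG, lowest on the arrays numbered 3 in both groups. Astrocyte markers had both below in 8 of 12 (66.7%), against 15.7% of all genes, with a median of -0.36. Their log2 values summed from 102 to 107 in PBS and from 102 to 108 in MG. Only Gjb6 of the 12 was under the dim level, and no marker was at 0. Aldoc was in both the astrocyte list and the glycolysis list. Oligodendrocyte markers had both arrays below in 3 of 9 (33.3%), against 15.7% of all genes, with a median gap of -0.19. Neuroblast and neuron markers had both below in 1 of 10 (10.0%), with a median gap of -0.13. Stem cell and radial glia markers had a median gap of 0.00. Both arrays were above in 4 of 14 (28.6%), against 22.5% of genes above the dim level. Both were below in 1 (7.1%), against 18.8%. The part of these genes, or of the cells that hold them, in the gap of the replication genes was not tested.

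**Figure D3:**
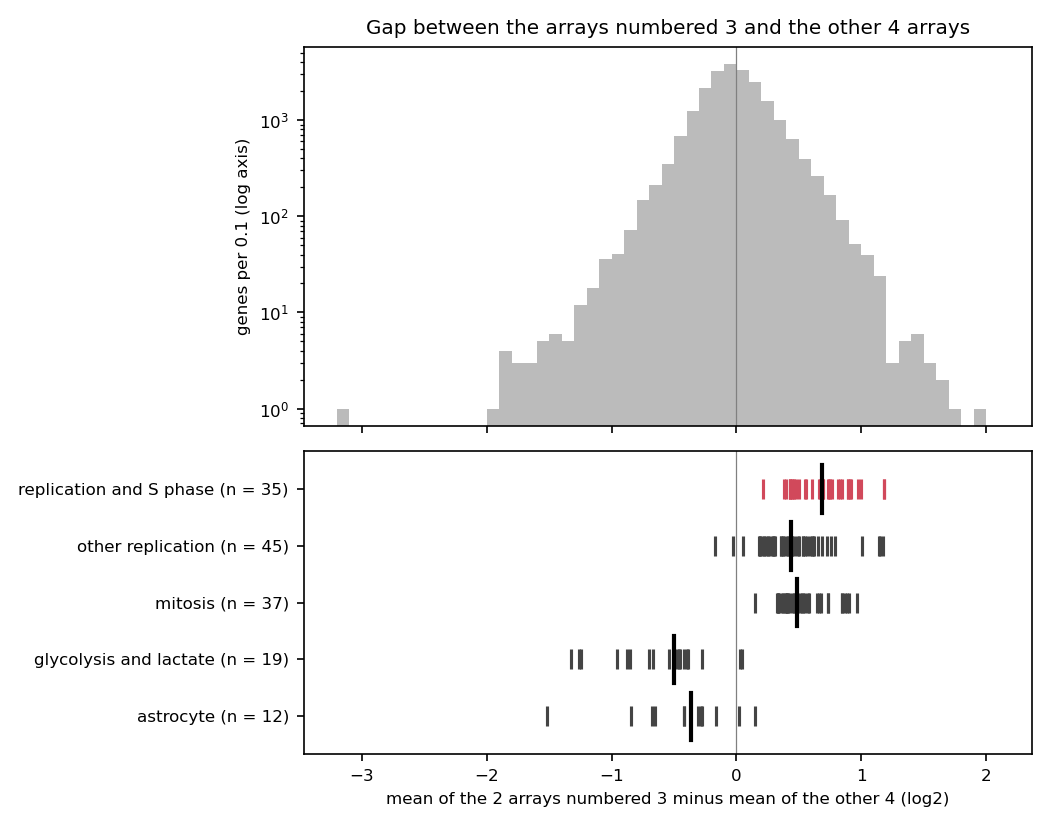
Gap between the mean of the arrays numbered 3 and the mean of the other 4 (log2, horizontal axis): above, the number of genes per 0.1 among all 22180 (log axis); below, 1 tick per gene for 5 lists, with a thick line at the median of each list. The replication and S phase genes have a median of 0.69 and none below 0, while glycolysis and lactate genes have a median of -0.50.

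MG was compared with PBS to ask how exposure before birth relates to expression in the adult cultures, and no replication or S phase gene passed the test. With limma's moderated test and Benjamini-Hochberg adjustment over 22180 genes, 0 of the 35 passed and 0% of all genes did. At an unadjusted p under 0.05 there were 0 of the 35 and 3.21% of all genes. The groups did not overlap in 0 of the 35, while all 3 MG values were above all PBS values in 4.03% of all genes and below in 3.31%. That 0 was fixed by the array values already described, and it says nothing of its own about MG. With the array numbered 3 of each group above the other 4 arrays in every gene, the groups had to overlap. The median log2 difference, MG minus PBS, was 0.05 in the 35 genes and 0.01 in all genes.

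Tyms had the smallest unadjusted p of the set, 0.542, with an adjusted p of 0.9998 in limma. PBS cultures had a mean of 7.96 ± 0.60 (SD, n = 3) and MG cultures one of 8.22 ± 0.76 (SD, n = 3). The log2 difference was 0.26 (standard error 0.41, 95% confidence interval -0.69 to 1.21). The next smallest, Slbp, had 8.68 ± 0.35 and 8.80 ± 0.16, a difference of 0.12 (interval -0.32 to 0.56). Rpa2 followed, at 8.52 ± 0.31 and 8.65 ± 0.34, a difference of 0.13 (interval -0.37 to 0.62). The lowest difference was that of Hells, -0.10 (interval -0.75 to 0.54), and those of Mcm2 to Mcm7 lay between -0.04 and 0.07.

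The spread within groups was wide, and each group held 1 array numbered 3. The standard error had a median of 0.26 in the 35 genes and 0.15 in all genes, and the interval stayed within 1 to either side in 33 of the 35. Of each gene's sum of squares over the 6 arrays, a median of 87.9% (range 61.5% to 98.2%) lay between the arrays numbered 3 and the rest, and 1.03% between MG and PBS, with 6.16% at most. Over all genes the medians were 26.9% and 9.08%. Both shares are parts of the same total, so a large share for the arrays numbered 3 leaves little for MG against PBS. The lower share between MG and PBS in the 35 genes is therefore not a separate result about MG. In all 35 genes the gap was larger than the difference between MG and PBS. This count was not made over all genes, and like the shares it is not a separate result about MG.

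The direction of the differences depended on single arrays. MG had the higher mean in 28 of the 35 genes, against 53.8% of all genes. Without PBS replicate 1 or without MG replicate 3 it was higher in 1, without PBS replicate 2 in 15, and without PBS replicate 3 in 35. Without both arrays numbered 3, MG was higher in 26, with a median log2 difference of 0.07 and a smallest unadjusted p of 0.149 among the 35. The difference of Tyms was -0.17 without MG replicate 3 and 0.61 without PBS replicate 3. With both arrays numbered 3 left out it was 0.17.

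**Figure D4:**
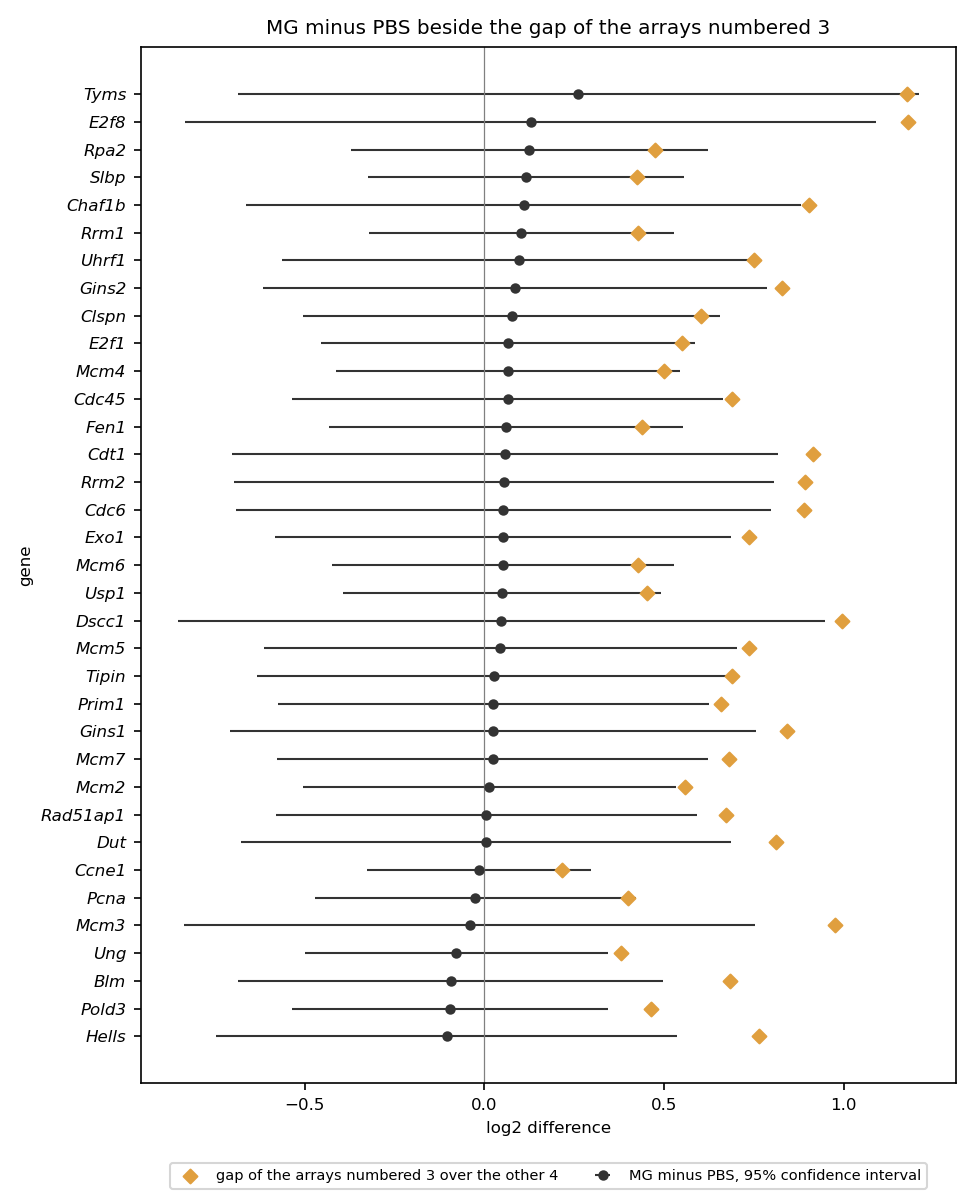
Log2 difference MG minus PBS of each of the 35 genes (black points, with the 95% confidence interval from limma) beside the gap of the arrays numbered 3 over the other 4 (orange diamonds), both on the horizontal axis, with genes ordered by the difference. All 35 intervals include 0, and each diamond lies to the right of the point of its gene.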

How the data were processed

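RNA was measured on 6 Affymetrix Mouse Gene 2.0 ST arrays, 3 per group. The values deposited by the authors are taken as log2 from their range, 0.73 to 13.81, with 1 per probe set. Per the submitters' processing notes the authors used Partek 6.6; the background correction and normalisation were not given in those notes, the labels or the file. Of 41345 probe sets, 23521 had 1 gene in the platform's annotation (symbols brought up to date by gene ID with the RefSeq table of GRCm38.p6), 1814 named several and 16010 none. All 22180 genes, dim ones included, entered a fit of MG against PBS without covariates in limma 3.58.1 (R 4.3.3; lmFit, eBayes, two-sided). With arrays, precision is set by the number of samples.

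The genes and lists were chosen with earlier results of these data known. Values on every array are given for the 3 widest and 3 narrowest gaps, Mcm2 to Mcm7, the 3 smallest p-values, and the widest and narrowest gap in each role; 4 other replication genes are named at each end. Alternatives tried were leaving out dim genes, averaged probe sets, quantile normalisation, median centring, array weights, trended robust moderation, the replicate number as a block, and arrays left out. On simulated data (10 runs of the comparison on 22180 genes, 50 changed per fold) the test recovered 13.8% of the genes changed 1.5-fold, 53.0% of those changed 2-fold and 86.4% of those changed 3-fold, with a mean of 4.1 false calls per run. The simulated noise was independent between genes, and the changed genes were drawn from all genes. The median standard error was 0.26 in the 35 genes and 0.15 in all genes, so these recoveries do not hold for the 35. Figures were drawn with matplotlib 3.10.9.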

Additional observations from a re-analysis of the deposited data

How the results depend on the processing

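Under each setting 0 genes passed the adjusted threshold in limma, and between 267 (dim genes left out) and 1163 (array weights) had an unadjusted p under 0.05. Both arrays numbered 3 lay above the rest in all 35 genes under each of the 4 normalisation, filter and probe set settings and without each of the other 4 arrays. The share among all genes was then between 15.5% and 22.2%, and leaving out one of the other arrays could not lower the count. The median gap ran from 0.63 to 0.73 there. With 1 array left out, the number of genes higher in MG ran from 1 to 35 of 35 and the median log2 difference from -0.18 to 0.28. With the others the number lay between 22 and 28. The difference ran from -0.17 to 0.61 for Tyms, from -0.049 to 0.295 for Rpa2, from -0.030 to 0.313 for Slbp and from -0.34 to 0.17 for Hells. Over all 35 genes and 14 settings, 98 of 490 differences turned sign, 54 of them without PBS replicate 1 or MG replicate 3, and 0 passed (smallest adjusted p 0.999); the cause was not tested.

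The replicate numbers were not taken as pairs. The deviations of same-numbered arrays from their group means correlated at 0.22, 0.04 and 0.45 over all genes, and PBS replicate 1 and PBS replicate 2 each correlated best with an MG array of another number. With the replicate number as a block, 0 genes passed, 28 of the 35 were higher in MG, and the smallest unadjusted p among the 35 was 0.0734.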
